A study of Mus musculus with 7 samples.

Results

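The genes described here encode the proteins of the cytosolic ribosome. Members were chosen by name, from the symbols of the array annotation: Rpl or Rps followed by a number with an optional letter, together with Rpsa, Rplp0, Rplp1 and Rplp2. This gave 84 of the 21901 genes named on the array, 52 for the large subunit and 32 for the small one. Rps27 was not analysed here. The naming rule used no measured value, and RefSeq (GRCm38.p6) holds all 84 symbols as current names.

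RNA came from regulatory T (Treg) cells, CD4 T cells that express Foxp3 and keep immune responses in check. Cells carrying CD4 and the YFP reporter were sorted from spleen and lymph nodes (pLN in the labels) of mouse chimeras. All 7 samples came from animals in which Cre is driven by Foxp3. In the 3 KO samples Pggt1b was floxed on both alleles (Pggt1b fl/fl), and in the 4 Het samples on 1 allele (Pggt1b fl/wt). Pggt1b encodes the beta subunit of geranylgeranyl transferase type I, which attaches a geranylgeranyl lipid to proteins. The controls therefore carry Cre and a floxed allele as well, and the labels give no age, strain or host genotype. The labels do not say whether replicates of a genotype were separate animals. P-values therefore reflect the variation among the arrays at hand, which could be technical only.

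A mammalian ribosome joins a large and a small subunit, each built of ribosomal RNA and many proteins, most of them present once per ribosome and encoded by single working genes. Transcripts of these genes classically begin with a cytosine followed by a run of pyrimidines, the 5′ terminal oligopyrimidine tract, through which mTORC1 signalling controls their translation. Resting T cells hold few ribosomes and make many more after activation. A few members are paralogs with restricted expression, among them Rpl3l of striated muscle and the testis genes Rpl10l and Rpl39l. Mammalian genomes also carry many processed copies of ribosomal protein genes, so a probe set can take up signal from near-identical sequences. The annotation's own cross-hybridisation column marked 0 of the 87 probe sets of the members as TRUE.

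Each sample was 1 single-colour array of 28846 probe sets, and precision is limited by how few arrays there are. Values are log2 levels, which are compared only within a probe set. A gene was taken as detected above a floor, the level that 95% of olfactory receptor probe sets of the same array stay under. The floor lay between 5.48 and 5.77, and genes detected on at least 3 arrays were tested. Pggt1b read 6.59, 6.62 and 6.59 on the KO arrays and 7.09, 7.11, 6.71 and 6.97 on the Het arrays, lower on every KO array, but its change of -0.37 did not pass the test (adjusted p = 0.126). Foxp3 lay between 11.16 and 11.36 in KO and between 11.01 and 11.24 in Het samples. Markers of myeloid cells stood apart: 16 of 21 tested rose in KO, and the mean of the 24 listed markers was 7.79, 6.87 and 7.12 on the KO arrays against 6.21, 5.79, 5.88 and 5.89 on the Het arrays. Csf1r, the receptor of a macrophage growth factor, was 10.03, 8.17 and 8.57 in KO and 6.75, 5.56, 5.71 and 5.52 in Het samples, while S100a8, S100a9 and Clec4f of the same list were below the floor on every array. In a sorted bulk sample, fewer cells of a type and less RNA per cell cannot be told apart.

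The start of the transcript is where genes of this family are best known to share a sequence, so a few starts are shown, for members with large changes, small changes and no detected signal, and for Rps6 as the member tied to mTORC1 signalling. The lines below give 15 bases before and 15 from the annotated start, read 5′ to 3′ on the transcribed strand, from RefSeq on GRCm38.p6. Capitals mark a tract that begins with C at the annotated start and runs on through at least 4 further C or T.
Rps21 (chr2:180257364-180257393, plus strand): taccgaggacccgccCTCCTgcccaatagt
Rpl38 (chr11:114668565-114668594, plus strand): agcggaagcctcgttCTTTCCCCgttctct
Rps6 (chr4:86857353-86857382, minus strand): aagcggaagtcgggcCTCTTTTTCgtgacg
Rpl28 (chr7:4792950-4792979, plus strand): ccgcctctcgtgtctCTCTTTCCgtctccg
Rpl22l1 (chr3:28805493-28805522, plus strand): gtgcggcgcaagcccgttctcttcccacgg
Rpl10l (chr12:66284387-66284416, minus strand): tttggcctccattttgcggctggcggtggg
Rpl39l (chr16:10170213-10170242, plus strand): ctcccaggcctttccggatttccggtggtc
At the starts shown, the first 4 genes hold the tract and the 3 paralogs do not. Rps21 has another annotated start without the tract, and Rpl32l, compared with Rpl32 below, holds a tract of 10 bases. The lines are examples and set no group of members against another. The sources used here do not name the genome build behind the array, so these positions are those of RefSeq alone.

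Of the 84 members, 63 had an entry in the RefSeq promoter table, which spans 250 bases before and 50 after each start. The tract stood at an annotated start in 13 of the 63 (20.6%), against 3.01% of the 27025 genes in that table. An annotated start that is off by a base can lose the tract, so its absence here describes only the annotation. The run CTCTTTC, searched on both strands across the window, was present in 28.6% of members, 9.28% of all genes and 8.55% of the tested genes. The run CCGGAAG, the core of sites for ETS-family factors such as Gabpa, was present in 41.3% of members, 9.93% of all genes in the table and 18.8% of the tested genes. The Yy1-like run AAGATGG was found in 14.3% of members, 7.28% of all genes and 8.36% of the tested genes. TATAAA was found in 12.7% of members, 15.7% of all genes and 9.35% of the tested genes. These are matches of letters, not binding sites. Among the members with an entry that were tested, the median log2 change was -0.35 for the 13 with the tract, of which 2 fell, and -0.32 for the 48 without it, of which 8 fell.

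Ribosomal protein transcripts read lower in Pggt1b KO than in Het Treg samples across nearly the whole family, by a modest amount. These are bulk readings of the sorted samples, and the KO samples also read higher in myeloid markers. With the myeloid mean as a covariate 0 of the members passed, as described below. Of the 84 members 82 were tested, all of them above the floor on all 7 arrays, and 10 fell at an adjusted p under 0.05 (12.2%). The background in that comparison was 3.25% of the 13077 genes tested. The median change over the 82 was -0.32 on the log2 scale, or 1.24-fold lower in KO, where the median of all tested genes was -0.02. By sign alone 81 of 82 members (98.8%) were lower in KO, against 53.3% of all genes. For 56 members (68.3%) every KO array lay below every Het array, against 9.83% of all genes.

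No member rose: limma called 0 higher, 0 were higher at an unadjusted p under 0.05, and 0 had all KO arrays above all Het arrays. The backgrounds were 2.55% for higher calls and 9.68% for KO arrays wholly above Het arrays. At an unadjusted p under 0.05, 48 members were lower, where 11% of all genes were. The 72 members that did not pass include many close to the threshold. The last gene inside it was Rpl38 with an adjusted p of 0.0465, and the first outside were Rpl15 with 0.0568 and Rps15a with 0.0571. The number of calls moved with the variance model and the arrays used. With an intensity trend in the variance 39 members fell, against 4.65% of all genes, and with array weights 21, against 5.33%. With the standard model it was 6, 2, 3 and 17 without Het array 1, 2, 3 or 4, and 3, 2 and 3 without KO array 1, 2 or 3. Between 1.84% and 3.48% of all genes fell in these fits. The share was 1.9% without Het array 2 and 1.89% without KO array 2, where 2 of 82 members fell. Over these 7 fits between 79 and 82 members were lower by sign and the median change stayed between -0.36 and -0.27.

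**Figure D1:**
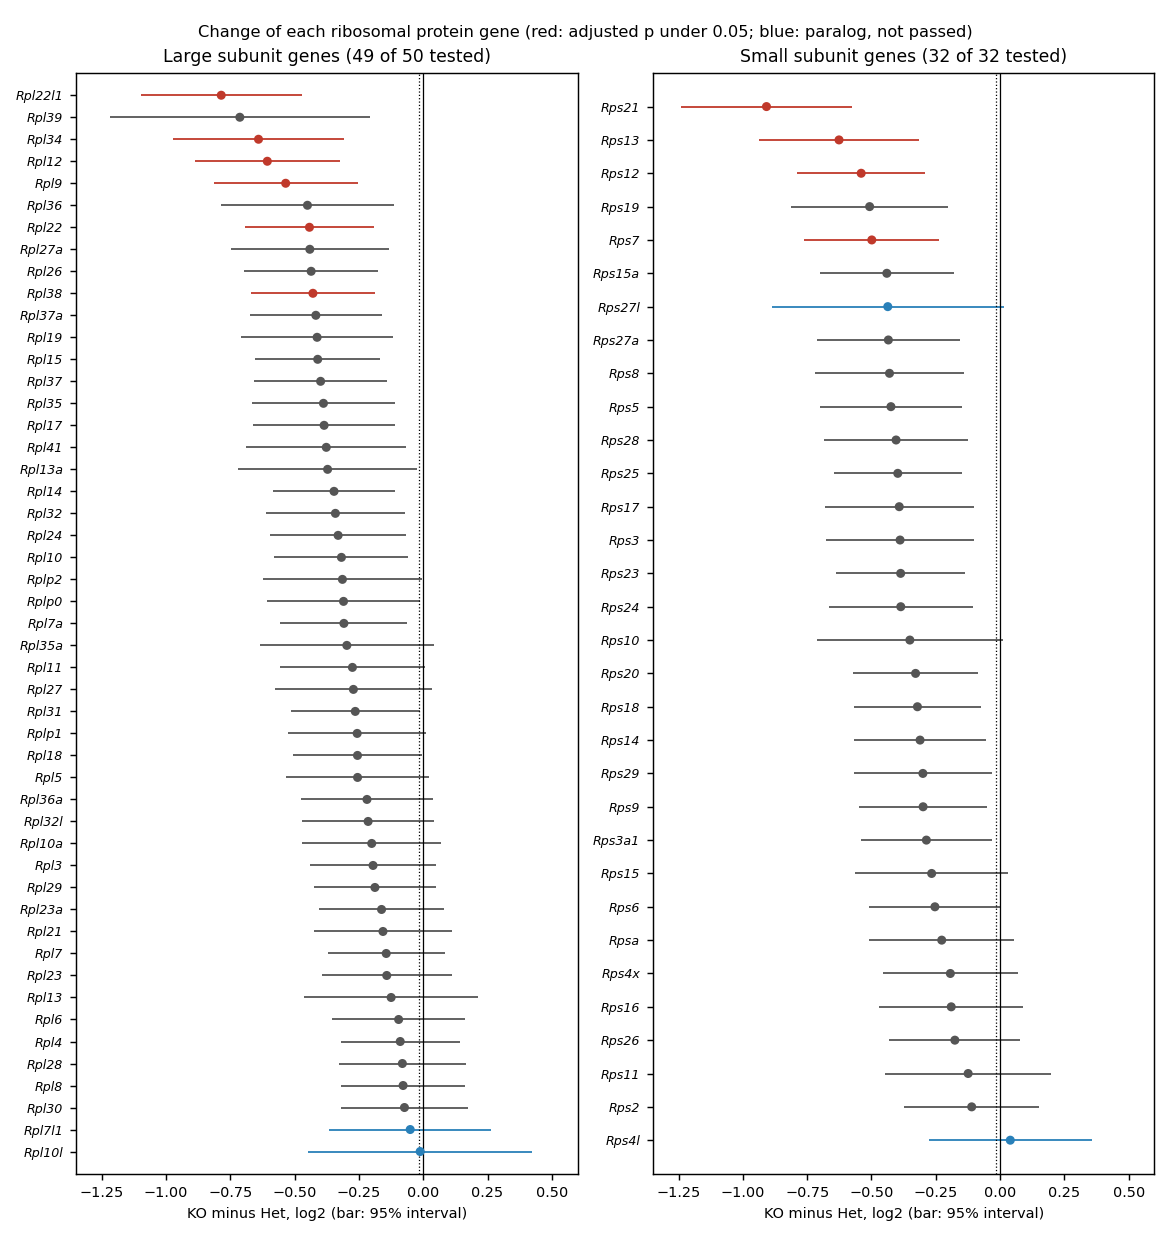
Change of ribosomal protein genes, KO minus Het on the log2 scale, with its 95% interval, for 49 of 50 tested large subunit genes (left) and all 32 small subunit genes (right). Red marks the 10 genes past the threshold, blue the listed paralogs that did not pass (Rpl32l is not on that list). The dotted line marks the median of all tested genes at -0.02. All points but that of Rps4l lie below 0.

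Among the small subunit genes 4 of 32 fell, Rps21, Rps13, Rps12 and Rps7, and the median change was -0.37, with a range from -0.91 to 0.04. Rps21, a small protein on the solvent side of the subunit, had the largest fall of the family. It read 10.44, 10.51 and 10.65 on the KO arrays and 11.79, 11.45, 11.22 and 11.30 on the Het arrays. The highest KO array lay well below the lowest Het array, and Het array 1 was the highest of all. The change was -0.91 ± 0.15 (SE), or 1.88-fold lower (adjusted p = 0.00549). Rps21 passed in all 7 fits that left out 1 array.

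Rps13, a protein that contacts the large subunit, was nearly constant in KO, at 10.44, 10.42 and 10.46. Its Het values were 11.39, 11.09, 10.95 and 10.83. The KO arrays sat together below a far more variable Het group, with an SD of 0.02 against 0.24. Rps13 fell by 0.63 ± 0.14 (SE), 1.54-fold (adjusted p = 0.027). Rps12, which in Drosophila takes part in the elimination of cells with fewer ribosomal protein gene copies, read 11.81, 11.78 and 11.88 in KO and 12.50, 12.35, 12.39 and 12.23 in Het samples. Again the groups were apart, with Het array 1 at the top. Its change was -0.54 ± 0.11 (SE), 1.45-fold (adjusted p = 0.0193). Rps7, mutated in some families with the human red cell disorder Diamond-Blackfan anaemia, was 10.82, 10.92 and 11.11 in KO and 11.53, 11.46, 11.48 and 11.33 in Het samples. Its KO arrays were the more spread ones, and the groups did not overlap. It fell by 0.50 ± 0.12 (SE), 1.41-fold (adjusted p = 0.0339). Rps12 and Rps13 lost the call without Het array 2 or 3 or any 1 KO array (adjusted p 0.0511 to 0.0886), and Rps7 without Het array 1, 2 or 3 or KO array 1 or 2 (0.0777 to 0.115). Rps12 also lost it under quantile normalization (change -0.38, adjusted p = 0.0646), and Rps7 with arrays centred on their median (0.0503) or with no filter (0.0534).

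The other 28 small subunit genes did not pass. Rps19, the gene most often mutated in Diamond-Blackfan anaemia in humans, came close. Its values were 9.32, 9.31 and 9.35 in KO and 10.14, 9.86, 9.74 and 9.60 in Het samples, a change of -0.51 (adjusted p = 0.0602). Here too the KO arrays were tight and wholly below the Het arrays. Over 9 members known from that disease in humans, a list drawn up after the values were seen, 1 passed (Rps7, 11.1%). That share was 12.2% over all tested members and 3.25% over all tested genes. The median change of the 9 was -0.35, close to the -0.32 of all members. Rps27a, which is made as a fusion with ubiquitin, changed by -0.43 (adjusted p = 0.0748), with no overlap between the groups. Rps6, the phosphorylation target of the S6 kinases below mTORC1, changed by -0.25 (adjusted p = 0.259), and its KO arrays, at 11.05, 11.05 and 11.07, also lay below its Het arrays, at 11.33, 11.50, 11.24 and 11.18. Rpsa, also known as the laminin receptor and mutated in human congenital asplenia, was 12.43, 12.88 and 12.73 in KO and between 12.87 and 12.93 in Het samples. KO array 1 set most of that gap of -0.23, KO array 2 lay within the Het range, and the change did not pass (adjusted p = 0.367).

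**Figure D2:**
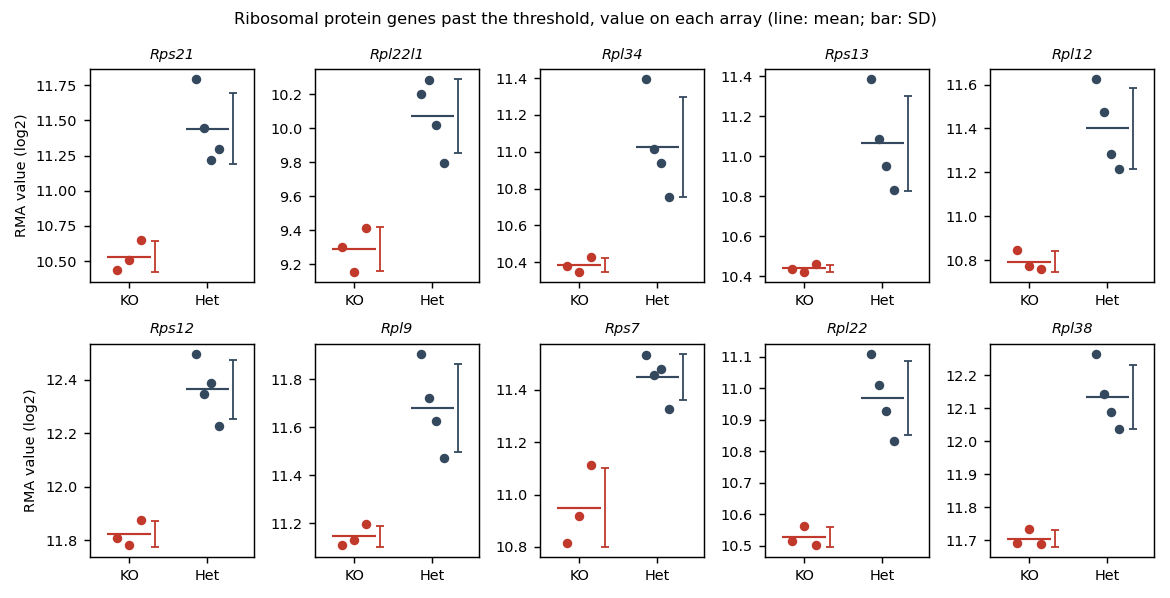
Log2 level on each array for the 10 ribosomal protein genes past the threshold, with the mean as a line and the SD as a bar (3 KO and 4 Het arrays, in array order from left to right). Axes differ between panels and do not start at 0. In every panel the KO arrays lie below the Het arrays, and Het array 1 is the highest except for Rpl22l1, where Het array 2 is.

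Among the large subunit genes 6 of 50 fell, Rpl22l1, Rpl34, Rpl12, Rpl9, Rpl22 and Rpl38. The median change was -0.30, with a range from -0.79 to -0.01. Rpl22l1 is the paralog of Rpl22, a protein that binds RNA and is dispensable for the ribosome itself. In mice, loss of Rpl22 blocks the development of αβ T cells, and Rpl22 holds down the Rpl22l1 transcript. Rpl22l1 read 9.30, 9.15 and 9.41 in KO and 10.20, 10.28, 10.02 and 9.79 in Het samples. Rpl22 itself read 10.52, 10.56 and 10.50 in KO and 11.11, 11.01, 10.93 and 10.83 in Het samples. Both genes were lower on all KO arrays than on any Het array. Rpl22l1 fell by 0.79 ± 0.14 (SE), 1.72-fold (adjusted p = 0.0091), and passed in all 7 fits that left out 1 array. Rpl22 fell by 0.44 ± 0.11 (SE), 1.36-fold (adjusted p = 0.0464), and passed in only 1 of those fits, the one without Het array 4. It also lost the call with centred arrays (0.0755) and with no filter (0.0731).

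Rpl34 was 10.38, 10.35 and 10.43 in KO and 11.40, 11.01, 10.94 and 10.75 in Het samples. It fell by 0.64 ± 0.15 (SE), 1.56-fold (adjusted p = 0.032). As with Rps13, a narrow KO group lay below a wide Het group. Rpl12 sits at the base of the stalk that recruits the translation factors. Its KO values were 10.85, 10.77 and 10.76 and its Het values 11.63, 11.48, 11.28 and 11.22. The change was -0.61 ± 0.13 (SE), 1.52-fold (adjusted p = 0.0204). Rpl12 lost the call without Het array 2, KO array 2 or KO array 3 (adjusted p 0.0616 to 0.0752), and Rpl34 without Het array 2 or 3 or any 1 KO array (0.0686 to 0.107) and with centred arrays (0.0526).

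Rpl9, at the edge of the large subunit near the stalk base, read 11.11, 11.13 and 11.20 in KO and 11.90, 11.72, 11.62 and 11.47 in Het samples. Its groups were apart by a clear gap, and it fell by 0.53 ± 0.13 (SE), 1.45-fold (adjusted p = 0.0329). Rpl38 is known from the Tail-short mouse, in which its loss lowers the translation of Hox messages. Its values were 11.69, 11.73 and 11.69 in KO and 12.26, 12.14, 12.09 and 12.04 in Het samples, a fall of 0.43 ± 0.11 (SE) or 1.35-fold (adjusted p = 0.0465). Both genes kept the call in only 1 of the fits with 1 array left out, that without Het array 4. Both also lost it with centred arrays (adjusted p 0.0568 for Rpl9 and 0.0718 for Rpl38) and with no filter (0.0504 and 0.0737), and Rpl38 under quantile normalization (change -0.30, adjusted p = 0.134).

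The 44 large subunit genes that did not pass run from a larger change than most of the called genes down to about 0. Rpl39, a very small protein in the wall of the peptide exit tunnel, changed by -0.71 ± 0.23 (SE), with an adjusted p of 0.104. It read 7.56, 7.67 and 7.44 in KO and 8.82, 8.53, 7.98 and 7.75 in Het samples. The groups did not overlap, but the Het arrays spread over more than 1 log2 unit. Rpl36 changed by -0.45 (adjusted p = 0.122), also with no overlap.

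The acidic stalk proteins Rplp0, Rplp1 and Rplp2, which help to recruit and activate the GTPase factors of translation, changed by -0.31, -0.26 and -0.31, and none passed (adjusted p 0.227 to 0.273). Rpl5 and Rpl11, which bind the 5S ribosomal RNA and can together hold Mdm2 away from p53, changed by -0.26 and -0.28 and did not pass (adjusted p 0.293 and 0.265). KO array 1 was the lowest array for Rplp0, Rplp1, Rplp2 and Rpl11.

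Apart from the paralogs, the members near 0 included Rpl4, Rpl28, Rpl8 and Rpl30, whose changes ran from -0.09 to -0.07 with adjusted p from 0.703 to 0.787. Rpl4, which also lines the exit tunnel, read 11.87, 12.02 and 11.97 in KO and between 12.01 and 12.07 in Het samples. Its 95% interval ran from -0.32 to 0.14, so a change as large as the family's median was at its edge. Quantile normalization turned the small changes of Rpl4, Rpl28 and Rpl8 positive, at 0.06 to 0.08, so they have no settled direction. The members were not ordered by level in any strong way: Spearman's rho between change and mean level was 0.20 over the 82 members, which share the same 7 arrays. By level, the median change was -0.37 for the 12 members under 10 and -0.26 for the 20 at 12 or more.

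The fallen genes were spread over the genome. The 84 members lie on 19 chromosomes, with 14 of them on chromosome 7, and the 10 that fell lie on 8. Of the 4 members on the X chromosome, Rpl10, Rpl36a, Rpl39 and Rps4x, none passed, and 2 were lower at an unadjusted p under 0.05. A second probe set was available for 3 members and did not always move with the first. For Rpl31 the second set changed by 0.39 and for Rps26 by 0.52, and for Rpl29 by -0.21. Their first sets changed by -0.26, -0.18 and -0.19. The second sets of Rpl31 and Rps26 averaged 6.62 and 6.67, where the first sets averaged 12.18 and 10.79. That of Rps26 was above the floor on 6 arrays only. By their names these second sets lie on other chromosomes than the genes, and so does the chosen set of Rpl29. They may therefore not be repeat readings of 1 gene, which was not tested.

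Large and small subunit genes gave similar counts. The share that passed was 12% of the large and 12.5% of the small subunit genes, and the share with no overlap between the groups was 68% and 68.8%. Without the 7 listed paralogs, 5 of 47 large subunit genes fell, with a median change of -0.31. Of the small subunit genes 4 of 30 then fell, with a median of -0.37. Rpl32l, which is not on that list, stays among the 47. The difference between the subunits was not tested, since the genes of 1 array are not replicates.

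Of the 7 genes in the list of paralogs, 5 were tested and 1 fell, Rpl22l1. Rpl39l, at 3.43 to 4.01, and Rpl3l, at 4.46 to 5.44, were below the floor on every array, so the testis and the muscle paralog were not detected in these Treg samples. Rpl10l was detected on every array, at 6.97, 6.98 and 6.88 in KO and 6.97, 6.55, 6.79 and 7.52 in Het samples. Its KO values lay inside the Het range, and its change was -0.01 ± 0.20 (SE, adjusted p = 0.986). Rps27l, which p53 induces in human cells, read 9.35, 9.09 and 9.17 in KO and 10.17, 9.67, 9.59 and 9.14 in Het samples. Het array 4 overlapped the KO group, and the change of -0.44 did not pass (adjusted p = 0.268). Rpl7l1 changed by -0.05 (adjusted p = 0.9) and Rps4l, which RefSeq lists as a transcribed pseudogene, by 0.04 (adjusted p = 0.923). Rpl32l, added to the comparison after its values were seen, changed by -0.21 (adjusted p = 0.343).

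For 5 pairs the change of the paralog was set against that of its parent gene, array by array, by exact permutation of the genotypes (35 ways to choose the KO arrays). The two-sided p was taken from the smaller tail, and its smallest possible value is 0.0571, so no pair could pass 0.05. The 95% intervals come from a pooled-variance t calculation, not from the permutation, and are not adjusted over the 5 pairs. Rpl22l1 changed by 0.34 more than Rpl22 in the downward direction, a difference of -0.34 with a 95% interval from -0.62 to -0.07, and reached that smallest p of 0.0571 (0.286 adjusted over the 5 pairs). Rpl10l minus Rpl10 was 0.31 (interval -0.41 to 1.02, exact p = 0.286). Rps4l minus Rps4x was 0.23 (interval -0.27 to 0.74, exact p = 0.286). These intervals are wide enough to hold both no difference and one as large as the family's median change. Rpl7l1 minus Rpl7 was 0.09 (interval -0.25 to 0.43, exact p = 0.514), and Rpl32l minus Rpl32 was 0.13 (interval 0.0007 to 0.25, exact p = 0.114). Probes of paralogs can share sequence with the parent, and how far they do was not tested.

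**Figure D3:**
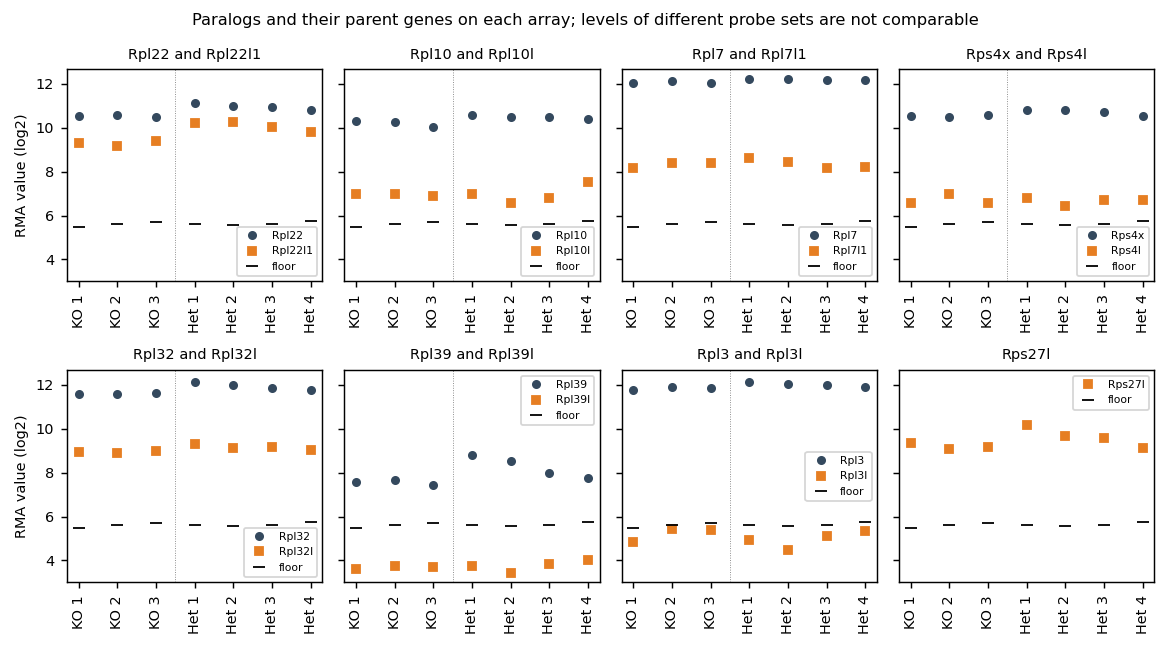
Log2 level on each array of 7 paralogs (squares) with their parent genes (circles), and of Rps27l alone, with the detection floor of each array as a dash. Rpl22 and Rpl22l1 are both lower on the KO arrays, while Rpl39l and Rpl3l stay below the floor on every array. Levels of different probe sets are not comparable.

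The shift was carried by all KO arrays but not evenly. Relative to the mean of the Het arrays, the median deviation of the 82 members was -0.40, -0.29 and -0.25 on KO arrays 1, 2 and 3. It was 0.13, 0.03, -0.04 and -0.13 on Het arrays 1 to 4. The KO arrays were thus all below the lowest Het array in this median, and Het array 4 lay nearest to them. For all tested genes the same medians stayed between -0.07 and 0.03. KO array 1 was the lowest of the 7 arrays for 51 members (62.2%), against 24.2% of all genes. Het array 1 was the highest for 58 members (70.7%), against 17.8% of all genes.

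KO array 1, the lowest in ribosomal protein genes, was also the highest in the mean of the myeloid markers, at 7.79. The myeloid mean was 6.87 on KO array 2 and 7.12 on KO array 3, and 6.21 on Het array 1, the highest of its group in both measures. With the myeloid mean as a covariate 0 of 82 members passed in limma, 8 were lower at an unadjusted p under 0.05, and 68 were lower by sign. The median change of the members was then -0.25, with the median of all genes at 0.085, and the fitted changes of Rps21 and Rpl22l1 were -1.04 and -0.94, with adjusted p of 0.424 and 0.434. Genotype accounts for 84.2% of the variance of that mean. The median SE of all genes rose from 0.141 to 0.338, so the contributions of the genotype and of the myeloid signal largely cannot be told apart here.

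**Figure D4:**
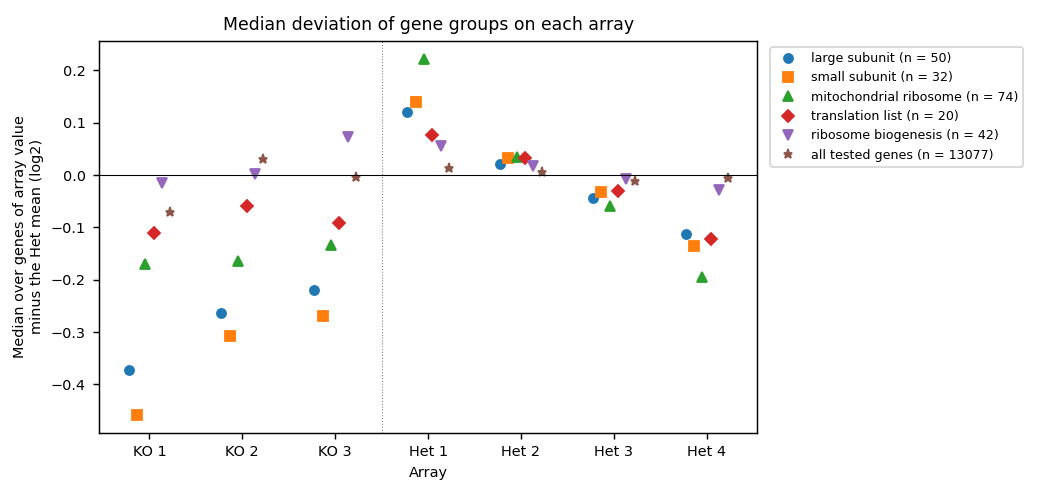
Median over the genes of each group of the array value minus the mean of the 4 Het arrays, on the log2 scale, for 3 KO and 4 Het arrays. Large and small subunit genes lie between -0.46 and -0.22 on the KO arrays and between -0.14 and 0.14 on the Het arrays, while the median of all tested genes stays within -0.07 to 0.03.

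Other ribosomal and translation genes were set beside the members. Of a list of 4 ribosomal protein genes that the naming rule does not catch, 0 passed in limma and 0 had an unadjusted p under 0.05. All 4 were lower by sign, and for 3 of them every KO array lay below every Het array. Fau, which encodes a ribosomal protein fused to a ubiquitin-like protein, changed by -0.23 (adjusted p = 0.348). Gnb2l1, now named Rack1, a scaffold on the small subunit, changed by -0.26 (adjusted p = 0.3), and Rpl36al by -0.19 (adjusted p = 0.47). Rps27rt and Rpl37rt, retrogene copies outside the rule that were named after their values were seen, changed by -0.47 (unadjusted p = 0.00842, adjusted p = 0.0942) and -0.43 (unadjusted p = 0.0116, adjusted p = 0.112), also with no overlap between the groups. The chosen Rps27rt probe set, the brighter of 2, carries chromosome 3 in its name, while RefSeq places the gene on chromosome 9. Which locus that probe set reads was not tested.

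Among 20 other translation genes, many of them with the same kind of transcript start, 1 fell and none rose, with a median change of -0.09. The one was Eef1b2, an exchange factor of elongation factor 1, which read 10.02, 10.09 and 10.21 in KO and 11.18, 10.93, 10.79 and 10.65 in Het samples. Its groups did not overlap, and its fall of 0.78 (adjusted p = 0.00878) was of the size of Rpl22l1's.

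No gene of ribosome biogenesis passed. Of 42 ribosome biogenesis genes, limma called 0 in either direction, 0 were lower and 3 higher at an unadjusted p under 0.05, and the median change was -0.00. Utp14a and Tcof1, which act in the nucleolus, had the smallest p, with changes of 0.40 (adjusted p = 0.121) and 0.34 (adjusted p = 0.148). Of 11 genes of RNA polymerase I, which transcribes the ribosomal RNA, 0 passed, 1 was lower at an unadjusted p under 0.05, and the median was 0.00. Of 16 chaperones and late assembly factors 1 fell, Bccip, which in human cells escorts Rpl23, by 0.50 (adjusted p = 0.0323), and the median was 0.10. Of the snoRNA host genes 1 of 8 was on the array, 1500012F01Rik (a synonym of Zfas1), with a change of -0.48 (adjusted p = 0.176).

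Among 19 genes that control ribosomal protein transcripts or their translation, 2 rose and none fell. Myc, which drives ribosome production in activated T cells, read 11.22, 11.12 and 11.21 in KO and 10.64, 10.63, 10.66 and 10.59 in Het samples. All KO arrays were above all Het arrays, and Myc rose by 0.55 (adjusted p = 0.0113). Eif4ebp2, a repressor of cap-dependent translation held in check by mTORC1, read 8.56, 8.64 and 8.72 in KO and between 8.02 and 8.11 in Het samples, a rise of 0.57 (adjusted p = 0.0112). The list's median was 0.08.

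The mitochondrial ribosome, which is built from a separate set of nuclear genes, was compared by counts and medians. Of 74 tested genes 2 fell (2.7%), no larger a share than the 3.25% of all genes. They were Mrpl13 by 0.76 (adjusted p = 0.0418) and Mrpl52 by 0.71 (adjusted p = 0.0257). None rose, and the median change was -0.17. By sign 59 (79.7%) were lower, against 53.3% of all genes and 98.8% of the cytosolic members. At an unadjusted p under 0.05, 11 of the 74 were lower, where 11% of all genes were, and 0 were higher. For 9.46% of them the KO arrays were all below the Het arrays, against 9.83% of all genes and 68.3% of the cytosolic members. Here Het array 1 was high, with a median deviation of 0.22, and Het array 4 low, at -0.20, below the KO arrays. No test of the difference between the cytosolic and the mitochondrial set was made.

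**Figure D5:**
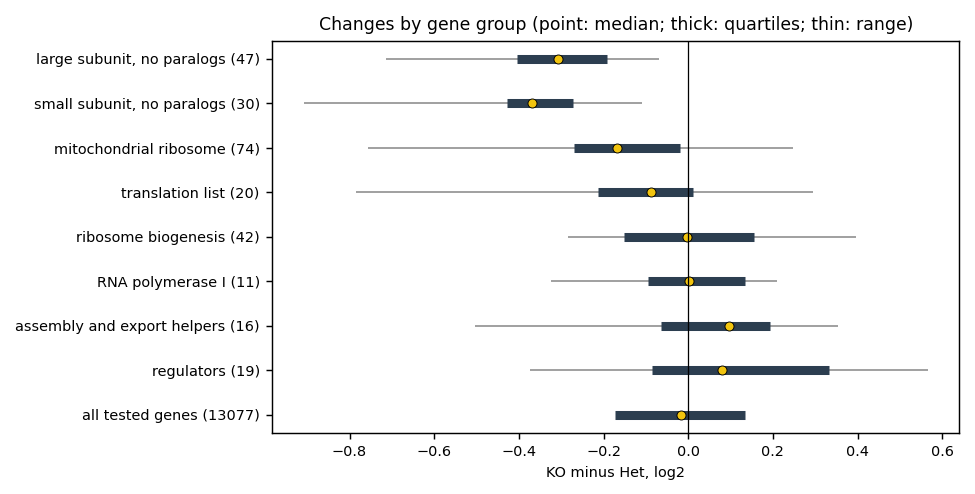
Changes by gene group, KO minus Het on the log2 scale: the point is the median over genes, the thick bar spans the quartiles and the thin line the range, with the number of tested genes in brackets. The quartiles of both cytosolic subunits and of the mitochondrial ribosome lie below 0, those of ribosome biogenesis and RNA polymerase I genes span 0.

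Markers of other cells in a CD4+ YFP+ sort were read as well. Beside the myeloid list, none of 5 tested B cell markers and none of 7 erythroid and platelet markers passed in limma, and none of either list had an unadjusted p under 0.05. Of the B cell genes Ebf1 changed by -0.44 and Cd22 by -0.26. By sign 1 of the 7 erythroid and platelet markers was lower in KO. The haemoglobin gene Hbb-bs read 11.53, 10.60 and 8.05 in KO and 8.38, 6.51, 8.16 and 10.33 in Het samples, a change of 1.72 (adjusted p = 0.317), and Hbb-bt changed by 1.55 (adjusted p = 0.304). Hbb-bs was highest on KO array 1, the array lowest in ribosomal protein genes, and the groups overlapped. The platelet genes Gp1bb and Ppbp were below the floor on every array. Of 4 tested CD8 and NK markers Nkg7 fell (adjusted p = 0.000644) and Cd8b1 rose by 0.65 (adjusted p = 0.0154), with Klrb1c, Ncr1 and Klrd1 below the floor everywhere. Of 7 Treg genes 3 fell and none rose, and of 8 T cell genes none passed, with 3 lower at an unadjusted p under 0.05. The part of these cells in the ribosomal protein values was not tested beyond the covariate above.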

How the data were processed

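RNA of 3 KO and 4 Het Treg samples was amplified and labelled with the NuGEN WTA Pico v2 and Encore Biotin kits, per the labels' protocols. Amplifying small RNA inputs can add variation between arrays. The authors deposited log2 values made by RMA in Affymetrix Expression Console 1.1, per the submitters' processing notes. RMA equalises distributions across arrays, which would shrink a shift shared by most genes. Array design and genome build: not given in the sources used here. The deposited tables hold the same values.

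Groups follow the labelled genotype. Replicates were numbered in accession order and pair nothing. Of 28846 probe sets 22202 carried 1 symbol, and each of 21901 genes was represented by its brightest probe set on average. Genes above the olfactory 95th percentile (1116 probe sets) on at least 3 arrays were kept, which gave 13077 and left out 8824. Changes are KO minus Het, tested by limma (lmFit, eBayes; version 3.58.1 under R 4.3.3) with Benjamini-Hochberg adjustment over all 13077 genes and a threshold of 0.05. Of these steps only the limma fit was tested on simulated data, drawn with independent errors, without deviations shared by the genes of an array. Paralog pairs used exact permutation tests, with intervals from a pooled-variance t calculation (scipy 1.17.1). No set test was run.

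Alternatives were array weights, an intensity trend, centring, quantile normalization, other filters, the mean of a gene's probe sets, a myeloid covariate and leaving out each array. Named were all members past the threshold, the 5 largest falls and the 5 changes nearest 0 among members other than paralogs, the paralogs with their parents, the stalk and 5S proteins, Rpsa, Rps6 and Rps27a. Outside the family, up to 3 called genes and the 2 with the smallest p of each translation list were named by rule, and the 2 largest changes of each marker list; further examples were added after their values were seen. Members, lists and tests were chosen with earlier results of these data known. The results of a few genes are not reported here. Sequences were matched by symbol to the RefSeq promoter table of GRCm38.p6.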

Additional observations from a re-analysis of the deposited data

Results flagged for a closer look

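In 4 of 84 ribosomal protein genes 1 of the 4 Het arrays lay far from the other 3 by Dixon's ratio, the gap to the nearest array over the group's range, taken at its 95% critical value. Chance gives about 1 in 20 groups. Het array 1 was high for Rpl29 (ratio 0.912, at 11.39 with the next at 11.28) and for Rpl23 (ratio 0.848, at 11.91 with the next at 11.70). Het array 4 was low for Rpl13a (ratio 0.852, at 13.02 with the next at 13.19) and for Rpl37a (ratio 0.840, at 12.45 with the next at 12.67). None of these 4 genes passed the test. The chosen Rpl29 probe set is annotated to a GenBank clone.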

How the results depend on the processing

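The count of ribosomal protein genes that fell, 10 as reported, was 21 with array weights, 39 with an intensity trend in the variance, 5 with arrays centred on their median, 6 with no filter, and 0 with the myeloid mean as a covariate (8 at an unadjusted p under 0.05, with medians of -0.24 for large and -0.28 for small subunit genes); leaving out 1 array gave 2 to 17. The stricter filter and averaged probe sets gave 10. Quantile normalization gave 11, of which 8 were among the 10: Rps12 and Rpl38 were lost and Rpl26, Rps15a and Rps19 gained. No alternative called a member higher. Rps21 and Rpl22l1 passed in 14 of 15 alternatives, all but the myeloid covariate. Counts for all genes were 697 lower and 548 higher with array weights, 2 and 0 with the covariate, and 240 to 455 lower and 209 to 290 higher without 1 array. The median of all genes was 0.085 with the covariate. Without 1 array, it ran from -0.04 to 0.01, that of large subunit genes from -0.35 to -0.22 and that of small subunit genes from -0.40 to -0.29. Small changes turned sign. Rpl10l was 0.11 with array weights, 0.0059 with centring, and -0.15 to 0.18 without 1 array (above 0 without KO array 3 or Het array 4). Rpl7l1 was 0.025 with array weights, 0.080 with the covariate, and -0.11 to 0.039 without 1 array (above 0 without KO array 1 or Het array 1). Without 1 array Rps4l ran from -0.097 to 0.12 (below 0 without KO array 2 or Het array 2). Under quantile normalization Rpl28 was 0.056, Rpl4 0.082, Rpl7 0.020, Rpl8 0.069 and Rpsa 0.0020, and 73 of 82 members were lower by sign. With the covariate Rpl28 was 0.15, Rpl4 0.085, Rpl8 0.094, Rplp1 0.027 and Rpsa 0.26. The causes were not tested. No paired analysis was possible because replicates were numbered in accession order and the labels pair no samples. The number of arrays limits what smaller changes can be told from 0.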
